A study of Mus musculus with 6 samples.

Results

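The genes described here are the Rag GTPases Rraga, Rragb, Rragc and Rragd, the folliculin gene Flcn with its partner genes Fnip1 and Fnip2, and the transcription factor genes Tfeb, Tfe3 and Mitf. They were read on 16 of the 45101 probe sets of the array, those carrying a single gene symbol that names one of these 10 genes. Rragb has no such probe set in the annotation and is not analysed here, which left 9 genes. The members were chosen by the S3 minus S1 difference of Rragd, which lay among the largest rises, so the Rragd values below are a description with no test. The other members were taken by family.

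Sorted red cell precursors of 2 stages were profiled on Affymetrix mouse arrays, S3 with 3 arrays and S1 with 3. Both subsets came from dissociated fetal livers of Balb/C mouse embryos and were sorted by flow cytometry on CD71, Ter119 and lineage markers, S3 being the more mature. Per the design text each subset was collected on 3 separate days, and how many embryos went into a sort is not given. The stage label gives embryonic day 13.5 for S3 and 12.5 for S1, while the source label gives 13.5 for all 6 arrays, so embryo age and subset cannot be told apart if the stage label holds.

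Rag GTPases sit on the lysosome as pairs, RagA or RagB with RagC or RagD, and recruit the kinase complex mTORC1 there when amino acids are at hand. Folliculin, together with an FNIP protein, acts on RagC and RagD as a GTPase activating complex. In that state the Rag pair also presents TFEB, TFE3 and MITF to mTORC1, whose phosphorylation keeps these factors out of the nucleus. When they are free they switch on genes of lysosomes and autophagy, and RRAGD, FLCN and FNIP2 are themselves known targets of these factors in human and mouse cells. Red cell precursors later clear their organelles, lysosomes and mitochondria included.

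Values are log2 signals that the authors scaled to 3 reference transcripts, so a step of 1 is a doubling. Background was taken as the 95th percentile of 27 bacterial control probe sets on each array and lay between 1.01 and 1.74 on the log2 scale. The arrays fell into classes by how much of a transcript's 5' side they detected. In 3 of them, here called short (S3 replicate 2, S1 replicates 1 and 2), the actin 5' probe set read below the 3' one by a log2 difference of -2.59 to -2.08, against -0.56 to -0.45 in the other 3, here called long (S3 replicates 1 and 3, S1 replicate 3). Among the red cell marker genes, S3 had lower signals for 3 of 3 early ones (Kit, Gata2, Myb). It had higher signals for 3 of 3 later ones with a probe set (Alas2, Slc4a1, Hbb-bh1). Each of these passed the 0.05 threshold on the limma adjusted p. The marker lists were chosen with earlier results of these data known, so these calls are no independent check of the subsets. The limma fit covered 11959 genes, of which 2.53% passed as higher and 12.8% as lower in S3, and the median log2 difference was -0.33. With each array centred on its median that shift was 0.00, so differences are also given minus the median of all genes.

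The stretches upstream of 3 members are shown because the E-box CACGTG, here also in its extended form TCACGTG, is the core of the element that TFEB, TFE3 and MITF bind. Each window runs from 250 bases before to 50 bases after the gene's start in RefSeq on GRCm38.p6. Capitals mark a match to TCACGTG on either strand, which contains CACGTG, and all 3 genes lie on the plus strand. Rragd, at chr4:32982748-32983047, is the member with the largest difference. Rragc, its closest relative, is at chr4:123917183-123917482, and Fnip1 is at chr11:54437929-54438228.
Rragd: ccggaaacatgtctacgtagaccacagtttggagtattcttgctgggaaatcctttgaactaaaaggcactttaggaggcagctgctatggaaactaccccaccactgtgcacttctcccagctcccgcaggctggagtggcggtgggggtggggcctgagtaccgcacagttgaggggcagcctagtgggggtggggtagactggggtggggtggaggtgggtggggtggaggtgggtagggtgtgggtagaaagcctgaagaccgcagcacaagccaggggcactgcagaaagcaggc
Rragc: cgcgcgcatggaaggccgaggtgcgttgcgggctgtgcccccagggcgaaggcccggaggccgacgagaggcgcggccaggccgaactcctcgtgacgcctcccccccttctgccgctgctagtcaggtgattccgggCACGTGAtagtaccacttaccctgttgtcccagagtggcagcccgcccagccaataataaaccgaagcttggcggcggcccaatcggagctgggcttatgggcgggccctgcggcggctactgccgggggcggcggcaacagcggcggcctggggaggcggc
Fnip1: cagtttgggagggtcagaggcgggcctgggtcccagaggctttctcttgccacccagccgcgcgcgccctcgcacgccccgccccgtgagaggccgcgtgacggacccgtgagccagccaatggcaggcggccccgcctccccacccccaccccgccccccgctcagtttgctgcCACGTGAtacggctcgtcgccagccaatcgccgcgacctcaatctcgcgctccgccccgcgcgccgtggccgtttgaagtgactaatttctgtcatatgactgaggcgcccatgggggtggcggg

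The extended E-box was present once in the Rragc window, with its first base 112 bases before the start, and once in the Fnip1 window, 75 bases before it. Rragb, which has no values here, held 3 matches. The letters TCACGTG were found in 3 of the 15 windows of the members (Mitf, Tfeb and Tfe3 have several) and in 3.77% of all 32851 promoter windows, and CACGTG alone in 7.15%. The Rragd window held neither, nor TCATGTG (the other core that these factors bind, in 3.77% of all windows), nor AGATAA (a core of GATA factor sites, in 11.18%). The 6 CG dinucleotides of the Rragd window compare with a median of 7 over all promoter windows, 32 in the Rragc window and 34 in that of Fnip1.

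Rragd, the gene of a Rag GTPase that pairs with RagA or RagB, was below background in S1 apart from replicate 3, and above it in S3. On its brightest probe set, 1434909_at, log2 signals were 8.84, 7.78 and 8.23 in S3 replicates 1 to 3, against -2.21, -1.14 and 3.10 in S1 replicates 1 to 3. The subsets did not overlap, and in S1 only replicate 3, the long array of that subset, was above background. The mean was 8.28 ± 0.54 in S3 and -0.08 ± 2.81 in S1 (SD, n = 3 arrays each), a log2 difference of 8.36. Its rank was 2 among the 11959 genes by fitted difference, after Fn3k (8.97) and before Cfap57 (7.11). Part of that size rests on readings below background. With values raised to background the difference was 6.49, it was 9.96 without S1 replicate 3, and it was 5.43 among long arrays and 9.45 among short ones. Differences within a class rest on 3 arrays and, here and below, are values with no test.

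The other Rragd probe sets were dimmer and ran the same way. Probe set 1440555_at read 3.46, 2.99 and 2.63 in S3 and 0.96, -1.80 and 1.86 in S1, a log2 difference of 2.69, or 1.65 with values raised to background. Its difference among long arrays was 1.18. Probe set 1431164_at, too dim to pass the filter, read 1.38, 1.64 and 2.93 in S3, above background on each array, and -2.63, -1.86 and -1.79 in S1, where no array was above it. With S1 values raised to background, its subset mean was 1.57-fold higher in S3. That holds for the means only, as S3 replicates 1 and 2 read below the background of S1 replicate 3 (1.74). All 3 Rragd probe sets had every S3 array above every S1 array, but only 1434909_at read far above background. For 1431164_at the separation rests on S1 readings below background. Rragd was chosen for this difference and the share over all probe sets was not computed, so nothing is read from that count.

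**Figure D1:**
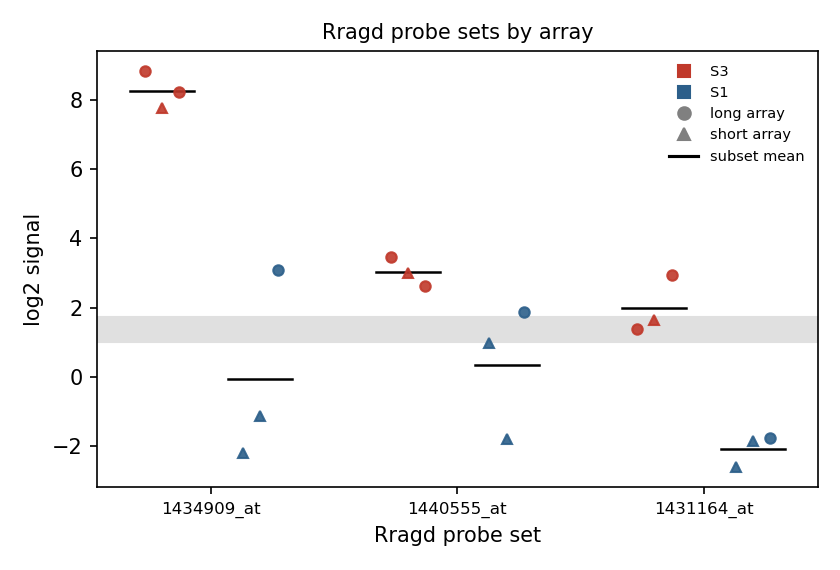
Log2 signal (y axis) of the 3 Rragd probe sets (x axis) on each S3 array (red, left) and S1 array (blue, right), with circles for long and triangles for short arrays, bars for subset means and a grey band for the range of background over arrays (1.01 to 1.74). The S3 arrays of 1434909_at lie between 7.78 and 8.84, and of the S1 arrays only replicate 3 (3.10) is above the band.

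The arrays read pooled sorted cells, so fewer cells of a type and less RNA per cell cannot be told apart for any member. Of the markers of megakaryocytes, which are related to red cells, Pf4, Gp9 and Ppbp had every S3 array above every S1 array (log2 differences 1.84, 1.74 and 1.82), while Itga2b overlapped (-0.31). Of all genes, 5.81% separated with S3 above. The log2 of the summed signal of all 4 was 8.30 to 8.40 in S3 and 5.75 to 7.36 in S1, and all 4 were above background on every array. Over the 6 arrays 0 of 4 were called. But 3 of 4 were called higher with the array class as a block (5.81% of all genes) and 3 of 4 with median centring (4.64% of all genes). Summed hepatocyte markers (5 genes, all above background on every array) ranged from 7.94 to 9.88 in S3 and from 8.02 to 8.29 in S1, overlapping. The median log2 difference of these 5 was 1.22, or 1.55 relative to all genes. Ttr (1.22) and Apoa2 (1.22) had every S3 array above every S1 array, where 5.81% of all genes separated that way. Of the 5, 0 were called over the 6 arrays, 2 were higher with the class block (5.81% of all genes) and 3 with median centring (4.64%). The part of the megakaryocyte and hepatocyte markers in the Rragd difference was not tested. Summed macrophage markers (7 genes, with Adgre1 and C1qc above background on no array) ranged from 5.04 to 6.44 in S3 and from 4.69 to 6.83 in S1. Summed granulocyte markers (5 genes, with Elane and Ltf above background on no array) ranged from 3.19 to 6.18 in S3 and from 4.15 to 5.58 in S1. Neither of these sums separated the subsets, and of the macrophage and granulocyte genes tested 1 was called, Prtn3, which was lower in S3 (log2 difference -2.94, limma adjusted p = 0.0127). Prtn3 missed the threshold without S1 replicate 1 (adjusted p = 0.0607) or S1 replicate 2 (adjusted p = 0.0532).

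By Pearson's r over the 6 arrays, the genes whose pattern was most like that of Rragd were Fn3k (0.998), 3830408C21Rik (0.994), Natd1 (0.993), Nacad (0.992) and Hagh (0.992). These are descriptions over arrays that share the subset and the array class, and no p is given. Fn3k, the gene of fructosamine 3-kinase, read 9.40, 8.19 and 9.58 in S3 and -2.08, -0.87 and 3.21 in S1, with the same S1 array high as for Rragd. Nacad read 8.93, 8.08 and 8.72 in S3 and 4.03, 4.16 and 5.73 in S1. Hagh, the gene of glyoxalase II, had a smaller difference, with a mean of 8.74 ± 0.10 in S3 and 7.58 ± 0.46 in S1 (SD, n = 3 each).

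Of the 8 measured members other than Rragd, 1 fell in S3 (Flcn), 0 rose and 7 were not called (limma, adjusted p under 0.05), where 12.8% of all genes were lower and 2.53% higher. At an unadjusted p under 0.05 there were 2 of 8. The share of all genes at that unadjusted threshold was not computed, and 15.3% of them passed the adjusted one in either direction. The contrast is the one that brought Rragd to attention, and nothing is read from these counts. The median log2 difference of these 8 was -0.48, or -0.14 relative to all genes. All 8 passed the filter on low signals. Of their 13 probe sets, 12 were above background on all 6 arrays, 11 had a negative and 2 a positive difference, and 1 was called lower in the fit over probe sets, against 6.66% of all probe sets. The share of negative differences over all probe sets was not computed, and the median of all genes was itself negative (-0.33). Several of the 13 probe sets read the same gene, so nothing is read from the split of signs.

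Rragc, the closest relative of Rragd and able to take its place in a Rag pair, was not called. It read 8.31, 7.58 and 7.88 in S3 and 8.04, 8.14 and 8.45 in S1, and the subsets overlapped. The log2 difference was -0.29 ± 0.27 (SE, limma adjusted p = 0.567) with a 95% confidence interval from -0.93 to 0.35. It was 0.04 after median centring and after quantile normalization, so its sign depended on the scale. Within the classes the difference was -0.36 among long and -0.51 among short arrays. With the class as a block it was -0.44 (limma adjusted p = 0.056), where the median of all genes was -0.54.

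Rraga encodes RagA, which pairs with RagC or RagD. It read 7.74, 6.08 and 7.5 in S3 and 6.47, 6.41 and 8.02 in S1. The array class, not the subset, set apart its readings: the long arrays gave 7.5 to 8.02 and the short ones 6.08 to 6.47. Its log2 difference was 0.14 ± 0.61 (SE, limma adjusted p = 0.920, 95% confidence interval -1.28 to 1.55). Within the classes it was -0.40 among long and -0.36 among short arrays, and with the class as a block -0.38 ± 0.18 (SE, limma adjusted p = 0.124). With that block and median centring together it was 0.23 (limma adjusted p = 0.559), so its sign depended on both the class and the scale.

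Flcn, the gene of folliculin, fell in S3. Its brightest probe set, 1438167_x_at, read 8.02, 7.82 and 8.15 in S3, against 9.33, 9.23 and 9.44 in S1. Every S3 array was below every S1 array, with little spread on either side. The mean was 8.0 ± 0.17 in S3 and 9.33 ± 0.11 in S1 (SD, n = 3 each), a log2 difference of -1.34 ± 0.19 (SE, limma adjusted p = 0.00547), or -1.01 relative to all genes. The difference was -1.35 among long and -1.46 among short arrays, and it stayed called without any single array (adjusted p from 0.00983 to 0.0374). The call was lost with median centring (-1.01, adjusted p = 0.0800), but not with quantile normalization (-1.05, adjusted p = 0.00802).

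The size for Flcn also depended on the probe set, and the suffix _x marks a probe set with probes that resemble other sequences. Probe set 1423663_at, without that suffix, read 4.90, 3.63 and 5.14 in S3 and 6.03, 5.36 and 6.38 in S1. Again no S3 array reached the S1 arrays, and the log2 difference was -1.37 ± 0.56 (SE, limma adjusted p = 0.197 over probe sets). With the array class as a block it was -1.71 ± 0.33 (SE, limma adjusted p = 0.00607 over probe sets). The third, 1456744_x_at, was near background, between 0.95 and 2.67, and overlapped (log2 difference -0.20). The mean over the 3 gave -0.97 (limma adjusted p = 0.167).

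The FNIP genes, whose proteins hold folliculin in its complex, were not called. Fnip1 on probe set 1419924_at read 7.81, 7.71 and 8.03 in S3 and 8.14, 8.44 and 8.45 in S1, without overlap. The log2 difference was -0.49 ± 0.23 (SE, limma adjusted p = 0.204, 95% confidence interval -1.03 to 0.04), or -0.16 relative to all genes. Its other probe sets differed by -0.53 (1449668_s_at, no overlap) and -0.38 (1434405_at, overlapping). Fnip2 read 9.50, 9.43 and 9.82 in S3 and 9.36, 9.0 and 9.43 in S1. The subsets touched, as S3 replicate 2 and S1 replicate 3 both gave 9.43, and the difference was 0.32 ± 0.18 (SE, limma adjusted p = 0.297, 95% confidence interval -0.10 to 0.74). Relative to all genes it was 0.65, and with the class block and median centring together Fnip2 was called higher (0.85, limma adjusted p = 0.00241). Fnip2 was positive and Flcn, the partner it shares with Fnip1, negative within both array classes.

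None of the TFE factor genes was called over the 6 arrays. Mitf, whose product is best known from melanocytes, mast cells and osteoclasts, read 5.29, 4.79 and 4.80 in S3 and 6.38, 6.25 and 6.05 in S1 on probe set 1455214_at. The subsets did not overlap. The log2 difference was -1.27 ± 0.36 (SE, limma adjusted p = 0.0540, 95% confidence interval -2.11 to -0.43, which is not adjusted for the number of genes), -1.01 among long and -1.53 among short arrays. The class block called it lower (-1.27, limma adjusted p = 0.00357). Its dimmer probe set, 1422025_at, read 1.87, 1.81 and 2.29 in S3 and 1.98, 2.64 and 3.25 in S1, overlapping. Summed mast cell markers (5 genes, with Mcpt4 above background on no array) read 2.45 to 4.15 in S3 and 3.11 to 3.76 in S1 on the log2 scale, low and overlapping.

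Tfeb, the factor best known for control of lysosomal genes, was dim. It read 3.08, 2.81 and 3.49 in S3 and 4.36, 3.76 and 4.01 in S1, without overlap and above background on all 6 arrays. The log2 difference was -0.91 ± 0.42 (SE, limma adjusted p = 0.206, 95% confidence interval -1.91 to 0.08). With the class block it was -0.99 (limma adjusted p = 0.0704), where the median of all genes was -0.54. Tfe3, its relative, read 7.88, 7.73 and 8.15 in S3 and 8.5, 8.03 and 8.60 in S1. Here S3 replicate 3 lay above S1 replicate 2, and the difference was -0.46 ± 0.26 (SE, limma adjusted p = 0.293, 95% confidence interval -1.06 to 0.14), or -0.13 relative to all genes.

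**Figure D2:**
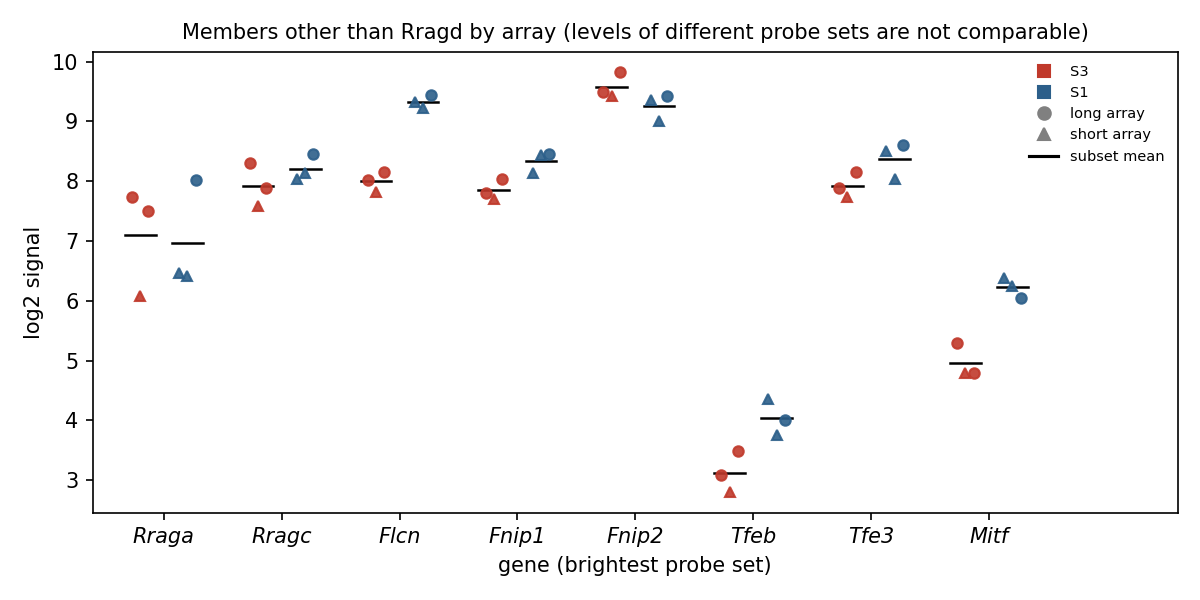
Log2 signal (y axis) of the brightest probe set of each member other than Rragd (x axis) on each S3 array (red, left) and S1 array (blue, right), with circles for long and triangles for short arrays and bars for subset means. The subsets do not overlap for Flcn, Fnip1, Tfeb and Mitf, and Rraga splits by array class. Levels of different probe sets cannot be set against each other.

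Every S3 array was below every S1 array for 4 of the 8 (Flcn, Fnip1, Tfeb, Mitf), where 29.5% of all genes separated that way, and above for 0 of 8 (5.81% of all genes). With the array class as a block, 4 members were lower (Flcn, Fnip1, Tfe3, Mitf) and 0 higher, where 41.2% of all genes were lower and 5.81% higher. That share is near the background of the same fit. When the block was joined with median centring, Flcn was called lower, Fnip2 higher, and Fnip1 and Tfe3 moved to 0.05 each. Within both array classes 7 of the 8 members had a negative difference, and Fnip2 a positive one. The share of all genes negative within both classes was not computed, and nothing is read from that count. With the class block the median log2 difference of all genes was -0.54.

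**Figure D3:**
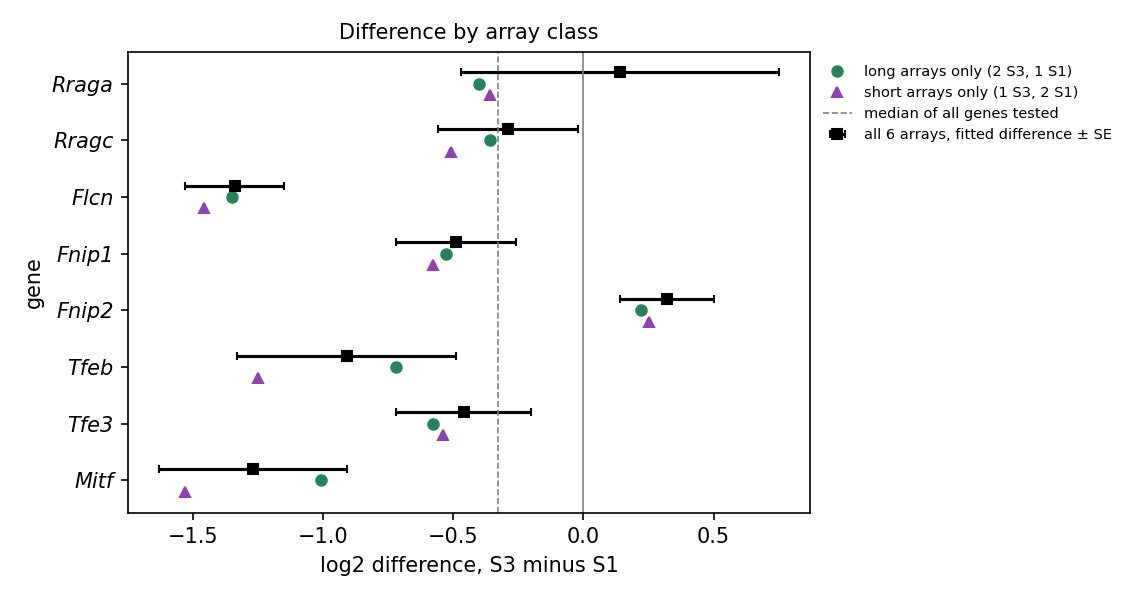
Log2 difference, S3 minus S1 (x axis), of the members other than Rragd (y axis), from all 6 arrays with its SE (squares), from long arrays alone (circles) and from short arrays alone (triangles), with 0 and the median of all genes tested (-0.33, dashed) as vertical lines. Flcn (-1.34) and Mitf (-1.27) lie farthest to the left, and on this scale Rraga is the one member whose pooled difference (0.14) has another sign than those within the classes (-0.40 and -0.36).

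Of 65 listed genes that surround these members in the pathway, 59 were tested, 2 were higher, 4 lower and 53 not called, where 2.53% of all genes were higher and 12.8% lower, with a median log2 difference of -0.11 beside -0.33 for all genes tested. Among the 5 Ragulator genes (Lamtor1 to Lamtor5), whose products anchor the Rag pair on the lysosome, 0 were called. Lamtor1 had the smallest p and read 10.30 to 10.38 in S3 and 10.37 to 10.59 in S1 (log2 difference -0.14 ± 0.09 (SE), adjusted p = 0.357). Likewise 0 of 5 tested genes of GATOR1, which turns RagA and RagB off, and its tether KICSTOR, 0 of 5 of GATOR2, which opposes GATOR1, and 0 of 7 amino acid sensor genes were called. The smallest p in each belonged to Itfg2 (-1.17 ± 0.39 (SE), adjusted p = 0.0860), Seh1l (-0.29 ± 0.09, adjusted p = 0.0776) and Bmt2, the S-adenosylmethionine sensor of this pathway (-1.12 ± 0.36, adjusted p = 0.0807). With the class block these 3 were called lower (adjusted p = 0.00545 for Itfg2, 0.0184 for Seh1l and 0.00361 for Bmt2), as were 41.2% of all genes, and with median centring added to the block none of the 3 was. Itfg2 was also called without S1 replicate 3 (adjusted p = 0.0410).

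Of the 5 genes of mTORC1, the kinase complex that the Rag pair recruits, 1 fell and 4 were not called, where 12.8% of all genes were lower. The faller was Deptor, an inhibitory subunit, which read 4.53, 3.28 and 3.85 in S3 and 6.79, 6.92 and 7.42 in S1. The subsets lay far apart, with a log2 difference of -3.16 ± 0.45 (SE, limma adjusted p = 0.00578), and it was called in all 16 other planned fits. The kinase gene Mtor read 5.09 to 6.70 in S3 and 5.41 to 7.45 in S1 (-0.11 ± 0.67, adjusted p = 0.940), and Rptor 6.05 to 6.25 in S3 and 6.06 to 6.87 in S1 (-0.38 ± 0.36, adjusted p = 0.567). With the class block Mtor was called lower (-0.67, adjusted p = 0.0392), though it was 0.22 with median centring. Mtor and Rptor do not meet the naming rule and were picked with their values in view.

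Of 5 tested mTORC1 effector genes, 1 fell, where 12.8% of all genes were lower. Eif4ebp1, a repressor of cap-dependent translation that mTORC1 inactivates, read 8.07, 7.10 and 7.55 in S3 and 9.43, 9.02 and 9.50 in S1 (log2 difference -1.74 ± 0.30 (SE), limma adjusted p = 0.00998). It missed the threshold without S1 replicate 1 (adjusted p = 0.0566) and with the mean over its probe sets (-1.21, adjusted p = 0.129). Of the 5 genes of the TSC complex and Rheb, the switch upstream of mTORC1, 0 were called, and Rhebl1 had the smallest p (-0.91 ± 0.46 (SE), adjusted p = 0.247). Of 3 folliculin relatives 0 were called. C9orf72, which forms a related complex with Smcr8, read 5.69 to 6.14 in S3 and 6.72 to 6.93 in S1 (-0.89 ± 0.32, adjusted p = 0.113), and was called lower with the class block (adjusted p = 0.0107).

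Of 19 tested lysosomal and autophagy genes known as targets of the TFE factors, 2 rose, 2 fell and 15 were not called, where 2.53% of all genes were higher and 12.8% lower, with a median log2 difference of 0.10, or 0.44 relative to all genes. The risers were cathepsins, proteases of the lysosome. Ctsb read 10.23, 10.06 and 10.02 in S3 and 8.90, 8.71 and 9.16 in S1 (1.18 ± 0.16 (SE), limma adjusted p = 0.00484), though the mean over its probe sets was not called (1.93, adjusted p = 0.0889). Ctsd averaged 10.11 ± 0.11 in S3 and 9.01 ± 0.17 in S1 (SD, n = 3 each; log2 difference 1.10 ± 0.14 (SE), limma adjusted p = 0.00455), and was called in all 16 other planned fits. For both, every S3 array was above every S1 array.

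The fallers of that list were hydrolase genes of the lysosome. Hexa, a subunit of beta-hexosaminidase, read 5.69, 5.70 and 5.12 in S3 and 6.97, 7.18 and 7.45 in S1 (-1.69 ± 0.35 (SE), limma adjusted p = 0.0200), and was not called in 7 of the 16 other planned fits (adjusted p up to 0.0823). Those were median centring, quantile normalization and the fits without S1 replicate 1, 2 or 3 or S3 replicate 1 or 3. Gaa, the acid alpha-glucosidase gene, named after its values were seen, read 4.14, 4.95 and 3.70 in S3 and 6.83, 6.07 and 6.40 in S1 (-2.17 ± 0.46 (SE), limma adjusted p = 0.0215). It was not called in 6 of the 16 other planned fits (adjusted p up to 0.0859), which were median centring, quantile normalization and the fits without S1 replicate 1 or 2 or S3 replicate 1 or 3. With median centring 4 of the 19 were higher and 0 lower, against 4.64% and 7.03% of all genes, and under the class block 4 were higher and 6 lower, against 5.81% and 41.2% of all genes.

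**Figure D4:**
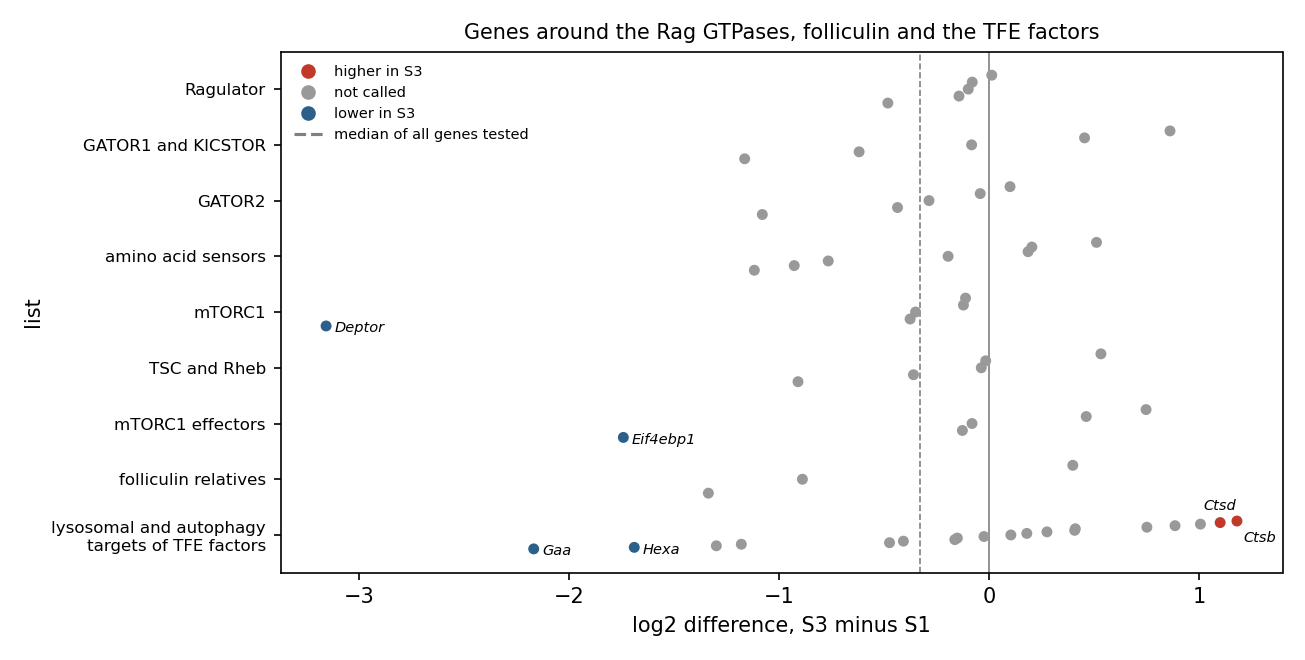
Log2 difference, S3 minus S1 (x axis), of each tested pathway gene by list (y axis), red for genes called higher, blue for lower and grey for not called, with 0 and the median of all genes tested (-0.33, dashed) as vertical lines. Deptor, Eif4ebp1, Gaa and Hexa lie below 0 and Ctsb and Ctsd above it, and the other 53 genes were not called.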

How the data were processed

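RNA of sorted S3 and S1 cells was amplified, tagged with biotin and hybridised to 1 array per sample, per the labels. The authors computed MAS5 signals and scaled them to the probe sets of 18S RNA, beta-actin and Gapdh, per the series' design text. The sources used here give no MAS5 version. The deposited values are on a log2 scale. Base 2 is assumed from the size of MAS5 signals, as the sources state none. Number of arrays limits precision, and detection calls were not used.

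Of 45101 probe sets, 34945 had 1 gene symbol in the platform annotation, 932 had several and 9160 had none, and 64 were controls. Through gene identifiers 34741 were found in the RefSeq table (GRCm38.p6), which changed 0 symbols. A gene was tested on its brightest probe set if that set's mean lay above the 40th percentile of non-control probe sets (11959 genes). A second fit took all 27022 probe sets past that filter. S3 minus S1 was estimated in R 4.3.3 with limma 3.58.1 (eBayes with a trend on intensity, two-sided tests, 4 residual and 3.41 prior degrees of freedom), with Benjamini-Hochberg adjustment over the whole table and a threshold of 0.05. The fit was tested on simulated data with independent noise per gene. That simulation had no array class and no array-wide shift, so it does not cover their effect on the calls.

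The members and gene lists were chosen with earlier results of these data known. Named genes are all members, up to 3 called genes of each pathway list with the smallest p (otherwise the 1 with the smallest p), and the 5 genes most like Rragd by Pearson's r. Exceptions are named in the text. Listed genes that no probe set names alone are not analysed here. Alternatives were median centring (over probe sets past the filter), quantile normalization, no filter or a 60th percentile filter, values raised to background, no trend, the mean over probe sets, a replicate block, the array class as a block (split at an actin 5' minus 3' difference of -1.5) with and without median centring, and leaving out each array. Long or short arrays alone were added after seeing the data. Promoter windows were taken from RefSeq, and all 10 genes had at least 1.

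The main fit did not pair the samples by replicate number. Deviations from the subset means correlated across genes at -0.19, 0.36 and 0.43 for replicates 1 to 3. S3 replicate 1 and S1 replicate 3, both long arrays of different number, gave 0.4. These values run with the array class, so they cannot show whether arrays of the same number share a collection day.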

Additional observations from a re-analysis of the deposited data

How the results depend on the processing

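Over all genes, 302 were higher and 1533 lower in S3. There were 555 and 841 with median centring, 698 and 1125 with quantile normalization, 241 and 991 with the mean over probe sets, 695 and 4922 with the class block, and 1891 and 1825 with that block and median centring; the share of higher among called genes was 16.5%, against 39.8%, 38.3%, 19.6%, 12.4% and 50.9%. Leaving out 1 array gave 121 to 371 higher and 535 to 1287 lower. With the replicate block there were 412 and 1897, Flcn stayed called (-1.34, adjusted p = 0.00854), and no member changed its call. Of the 8 members other than Rragd, 1 was lower in the main result and 1 without any single array; 0 were lower with median centring or the mean over probe sets, 2 with the 60th percentile filter or no trend (Mitf added, adjusted p = 0.0435 and 0.0310), 4 with the class block and, with that block and median centring, 1 higher and 1 lower. Of the pathway genes, 2 were higher and 4 lower. There were 4 and 2 with median centring and with quantile normalization, 1 and 3 with the mean over probe sets, 4 and 21 with the class block and 9 and 5 with that block and median centring; without 1 array there were 2 to 3 higher and 1 to 4 lower. Of the TFE target list, 2 were higher and 2 lower. There were 4 and 0 with median centring and with quantile normalization, 1 and 2 with the mean over probe sets, 4 and 6 with the class block and 5 and 2 with that block and median centring; without 1 array there were 2 to 3 higher and 0 to 2 lower. Signs turned for genes that were not called over the 6 arrays. Rraga (0.14) was -0.38 with the class block, -0.40 and -0.36 among long and short arrays, and -0.18 to -0.06 without S1 replicate 1 (-0.11), S1 replicate 2 (-0.14), S3 replicate 1 (-0.18) or S3 replicate 3 (-0.06), with up to 0.66 without S1 replicate 3, but 0.23 with the class block and median centring. Rragc was 0.04 with median centring and with quantile normalization and 0.17 with the class block and median centring. Lamtor1 was 0.18 with median centring, 0.01 with the mean over probe sets and 0.48 with both block and centring (adjusted p = 0.0116), and Seh1l 0.04, 0.10 and 0.30. Mtor was 0.22 with median centring, 0.24 with quantile normalization, 0.18 with the mean over probe sets and -0.52 to 0.50 without 1 array, and Rptor 0.38 with the mean over probe sets and 0.20 with both block and centring. With block and centring Fnip1 and Tfe3 were each 0.05, and Fnip1 probe sets 1449668_s_at and 1434405_at were 0.02 and 0.29, the last also 0.07 among short arrays. Flcn probe set 1456744_x_at was 0.13 with median centring, 0.15 with the class block, 0.76 with both, 0.17 without S1 replicate 1 or S3 replicate 1 (down to -0.69 without S1 replicate 3) and 0.54 among long arrays. The cause of these turns was not tested. Rragd, chosen for its difference, ranged from 5.53 to 9.96 over the 16 planned fits. With 3 arrays a subset, an exact permutation test of a single gene cannot go below p = 0.10.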
